A study of Mus musculus with 40 samples.

Results

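Remote myocardium is the heart muscle that lies away from an infarct, and its messenger RNA was compared between day 21 and day 3 after the infarct. The libraries were chosen by their labels, as those of the uninjured region at these times, and make up 8 of the 40 RNA-seq libraries of the series. They fall into 4 libraries of day 21, from mice A3, A4, A10 and A11, and 4 of day 3, from mice A4, A5, A7 and A8. All values below follow this order of mice. Mouse A4 of day 21 and mouse A4 of day 3 are different animals. Every mouse was an adult of C57BL/6, a common inbred laboratory strain. Each had a permanent tie around the left anterior descending artery, the coronary vessel in front of the left ventricle. Both groups had thus been operated on, and no sham-operated or intact heart enters the comparison. Sex is not given in the sources used here. The scar of the same 8 hearts and the remote region at days 7, 14 and 42 serve below as points of comparison.

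When a coronary artery is closed, the muscle it fed dies and is replaced by scar, while the surviving remote muscle carries more load. In the first days signals from the infarct draw immune cells and activate fibroblasts in the whole ventricle. Over the following weeks surviving cardiomyocytes can enlarge and take up genes of the fetal heart again, such as skeletal actin, the beta myosin heavy chain and the natriuretic peptides. The question the contrast addresses is how remote muscle differs once the acute phase has passed.

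Values are the RPKM that the authors deposited, in which the reads of a gene are divided by how long it is and by how deeply the library was sequenced. Recovered whole reads summed to 14719003 to 18865201 per library at day 21 and to 13332495 to 16054359 at day 3. Tissue labels held against markers of cardiomyocytes: Myh6, the adult alpha myosin heavy chain, stood at 4630 ± 533 RPKM at day 21 and 5519 ± 398 RPKM at day 3 in remote muscle (SD, n = 4), and in scar at 468 ± 104 RPKM at day 21 and 245 ± 126 RPKM at day 3. The day 21 libraries came in 2 pairs. Over genes, A3 and A4 correlated at a Spearman rho of 0.995, A10 and A11 at 0.991, and the other 4 pairs of day 21 at 0.981 to 0.984. At day 3 the pairs lay between 0.985 and 0.992, and between the days between 0.970 and 0.985. Xist, the RNA of the inactive X chromosome, was at 16.8 and 17.4 RPKM in A10 and A11 of day 21 and at 17.7 RPKM in A4 of day 3. In the other hearts it was at most 0.0873 RPKM. The 2 pairs of day 21 thus also differ in Xist. Pair and Xist, and any difference of sex with it, cannot be told apart at day 21. The differences between A3 and A4 were larger than counting noise, with a median chi-square of 1.31 over 10500 genes on 1 degree of freedom. This was the lowest of the pairs within a day, and the others gave 2.17 to 6.03. Such a value cannot tell 2 mice from 2 preparations of 1 heart. A3 and A4 were each counted as 1 sample because the labels give them as separate mice.

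Of 11390 genes tested with limma on log2(RPKM + 1), 651 (5.72%) were higher and 658 (5.78%) lower at day 21, or 1309 in all (11.5%), at an adjusted p under 0.05. On this scale large changes were mostly upward: 44 genes rose and 20 fell by at least 1 on the log2 scale, which means a doubling or halving of RPKM + 1. Adding 1 understates changes of low genes, and genes called lower were less abundant. Their median was 3.44 RPKM at day 21 and 4.97 RPKM at day 3, against 11.5 and 7.91 RPKM for genes called higher. The part of this in the upward excess was not tested. The median difference over all genes tested was 0.0073. At an unadjusted p under 0.05 limma had 3067 of the 11390 genes, and later counts at that limit are to be read against this number. In 1042 genes (9.15%) all 4 day 21 values lay above the 4 day 3 values, and in 1089 (9.56%) all lay below. Both counts depended on the libraries. Without day 3 mouse A8 they were 419 higher and 329 lower, without day 3 mouse A4 433 and 368, and without day 21 mouse A4 350 genes were lower. Without the day 21 pair A10 and A11 they were 374 and 451, and without the pair A3 and A4 608 and 423. After rescaling to the totals of recovered reads, 743 were higher and 460 lower, so that 61.8% of the calls were upward against 49.7% before. No called gene was called in the opposite direction in any of the other 23 settings tried.

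**Figure D1:**
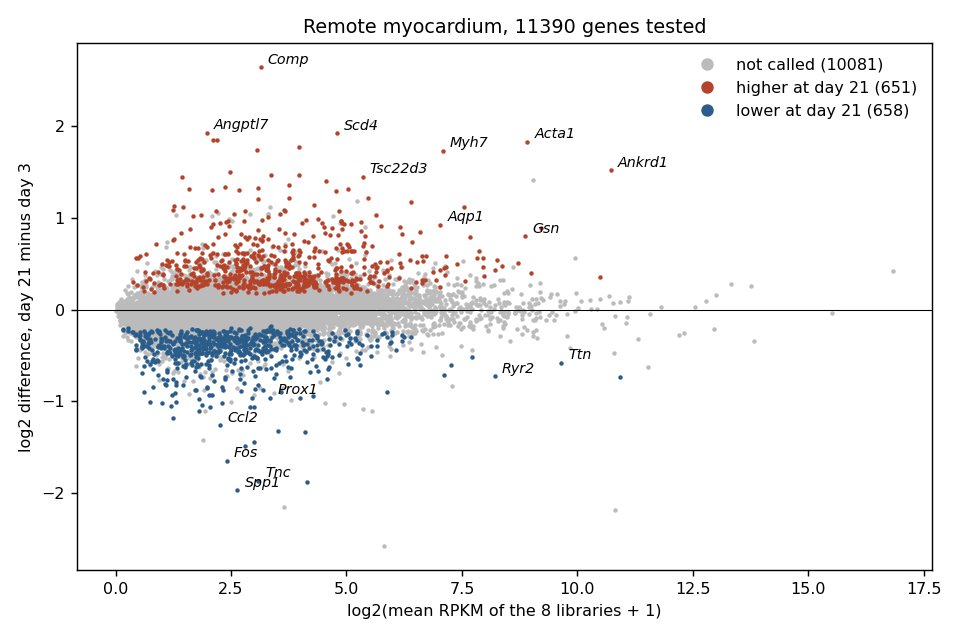
Each point is 1 of the 11390 genes, with log2 of its mean RPKM over the 8 remote libraries plus 1 on the x axis and its log2 difference, day 21 minus day 3, on the y axis. The 651 genes called higher and 658 called lower are coloured, and Comp lies highest, at 2.65, and Spp1 lowest among the called genes, at -1.97.

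Of 28 heart stress and fetal genes 8 rose and 0 fell at day 21, and their median difference was 0.20 on the log2 scale. Over all genes tested 5.72% were higher and 5.78% lower, and this and later list counts of the main fit are to be read against these shares. List counts without a day 21 pair are to be read against the counts over all 11390 genes without that pair. These were 374 higher and 451 lower without A10 and A11, and 608 and 423 without A3 and A4. Ankrd1, a muscle ankyrin repeat protein that responds to stretch, was the most abundant of the strongly risen genes (chromosome 19, 36111961 to 36120099 in mm10). It measured 1928, 2398, 2827 and 2776 RPKM at day 21 and 1019, 1211, 835 and 517 RPKM at day 3. The lowest day 21 library stood well above the highest day 3 library, and the difference was 1.52 ± 0.25 (SE, limma adjusted p = 0.00118). Acta1, skeletal alpha-actin, the actin of the fetal ventricle (chromosome 8, 123891769 to 123894751), measured 539, 435, 453 and 1650 RPKM at day 21 and 167, 309.9, 209 and 99.5 RPKM at day 3. Its groups did not overlap either, although A11 alone supplied more than the other 3 day 21 hearts together. Separate groups were a condition for naming Ankrd1 and Acta1 among the largest changes, so their separation is not a result. The same holds below for Comp, Angptl7, Scd4, Wisp2, Adh1, Ciart, Dkk3, Spp1, Tnc, Fos, Ccl2, Lama5, Prox1 and Lgr6. The difference of Acta1 was 1.83 ± 0.40 (SE, limma adjusted p = 0.00897).

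Myh7, the slow beta myosin heavy chain (chromosome 14, 54970684 to 54994626), measured 77.2, 180.3, 219.6 and 368 RPKM at day 21 and 57.8, 64.1, 80.04 and 29.3 RPKM at day 3. Day 21 mouse A3 lay below the highest day 3 mouse, so that the groups overlapped, and the difference was 1.74 ± 0.45 (SE, limma adjusted p = 0.022). It did not pass without day 21 mouse A10 or A11 or day 3 mouse A8 (limma adjusted p = 0.0531 to 0.0739). Gdf15, a secreted stress cytokine of the TGF-beta family, measured 1.5, 2.32, 4.76 and 3.6 RPKM at day 21 and 0.515, 0.323, 0.402 and 0.404 RPKM at day 3. Its groups did not overlap. The difference was 1.45 ± 0.26 (SE, limma adjusted p = 0.00249). Ctgf, a matricellular growth factor, rose by 1.18 ± 0.31 (SE, limma adjusted p = 0.0227), from groups that overlapped, and did not pass without day 21 mouse A10 or A11 or day 3 mouse A8 (limma adjusted p = 0.0653 to 0.0772). Uchl1, a ubiquitin hydrolase, rose by 0.82 ± 0.17 (SE, limma adjusted p = 0.00593) and Csrp3, the muscle LIM protein, by 0.40 ± 0.11 (SE, limma adjusted p = 0.0299). Csrp3 did not pass without day 21 mouse A10 or A11 or day 3 mouse A4 or A8 (limma adjusted p = 0.0545 to 0.108). Myh7 (1.10), Ctgf (0.70), Uchl1 (0.49) and Csrp3 (0.26) did not pass without A10 and A11 of day 21 (log2; limma adjusted p = 0.0816 to 0.228).

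The natriuretic peptides, hormones that the stretched heart releases, were near the threshold. Nppb measured 527, 611, 969 and 928 RPKM at day 21 and 536, 625, 368 and 199 RPKM at day 3, with 2 of the 4 day 3 hearts as high as the day 21 pair A3 and A4. Its difference of 0.89 ± 0.28 (SE, limma adjusted p = 0.0496) passed barely and was no longer called in 16 of the 23 other settings, among them those without day 21 mouse A4, A10 or A11 or day 3 mouse A7 or A8 (limma adjusted p = 0.0657 to 0.156). Nppa measured 421, 522, 1057 and 1033 RPKM at day 21 and 300.4, 306, 453 and 113 RPKM at day 3. It was higher in A10 and A11 of day 21 than in any day 3 heart, but its difference of 1.41 ± 0.45 (SE, limma adjusted p = 0.0514) did not pass. It did pass without day 21 mouse A3 or day 3 mouse A7 (limma adjusted p = 0.0398 to 0.0401). Without A10 and A11, 3 of the 28 stress genes were called higher, and without A3 and A4, 10. Myh7 and Myh6, and Acta1 and the cardiac actin Actc1, are near-identical copies, and the counting that split reads between them is not given in the sources used here. Mhrt, an RNA antisense to Myh7, stood at 25.1 ± 2.78 RPKM at day 21 and 38.5 ± 4.78 RPKM at day 3. The difference was -0.59 ± 0.12 (SE, limma adjusted p = 0.00317). Whether counting used strand is not given, so reads of the pair could not be told apart. Nppb (0.52) did not pass without A10 and A11 of day 21 (log2; limma adjusted p = 0.348).

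The bases before the starts of 4 of these genes are shown because they are the called members of the list whose window held the motif marked. Each line has the 250 bases before the RefSeq start in GRCm38.p6 (mm10), 5′ to 3′ on the strand of the gene. For Myh7 the first of 2 listed windows is given, and the second held no match. Capitals mark GGAATG or, on the other strand, CATTCC, the core of the M-CAT element, which TEAD factors bind in muscle genes.
Acta1, chr8:123894776-123895025, minus strand: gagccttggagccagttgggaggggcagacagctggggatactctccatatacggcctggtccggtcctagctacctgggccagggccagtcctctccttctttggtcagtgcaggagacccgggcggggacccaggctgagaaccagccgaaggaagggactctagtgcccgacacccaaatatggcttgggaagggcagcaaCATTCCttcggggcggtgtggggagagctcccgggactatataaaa
Ankrd1, chr19:36119845-36120094, minus strand: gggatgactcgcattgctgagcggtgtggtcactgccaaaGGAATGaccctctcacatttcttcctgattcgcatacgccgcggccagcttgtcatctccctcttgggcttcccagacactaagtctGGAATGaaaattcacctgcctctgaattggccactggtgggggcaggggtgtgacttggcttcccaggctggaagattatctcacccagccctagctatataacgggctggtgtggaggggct
Myh7, chr14:54994627-54994876, minus strand: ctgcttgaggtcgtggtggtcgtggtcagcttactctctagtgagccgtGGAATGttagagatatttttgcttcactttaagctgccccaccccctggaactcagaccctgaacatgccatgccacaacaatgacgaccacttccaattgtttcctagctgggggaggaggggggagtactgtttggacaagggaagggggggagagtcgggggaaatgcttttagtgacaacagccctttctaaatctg
Nppb, chr4:147985650-147985899, plus strand: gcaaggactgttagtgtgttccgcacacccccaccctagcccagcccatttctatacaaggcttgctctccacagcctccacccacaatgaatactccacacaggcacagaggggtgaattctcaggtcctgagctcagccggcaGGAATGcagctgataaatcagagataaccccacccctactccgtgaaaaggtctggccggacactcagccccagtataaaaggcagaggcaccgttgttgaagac
The match began 46 bases before the start in Acta1, 210 and 123 bases before it in Ankrd1, 201 in Myh7 and 105 in Nppb. Of the first listed windows of 8550 tested genes, 10.5% held the motif. On the stress list it was in 4 of the 7 called members that had a window and in 1 of the 17 others. A match is a description of letters, not of binding.

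**Figure D2:**
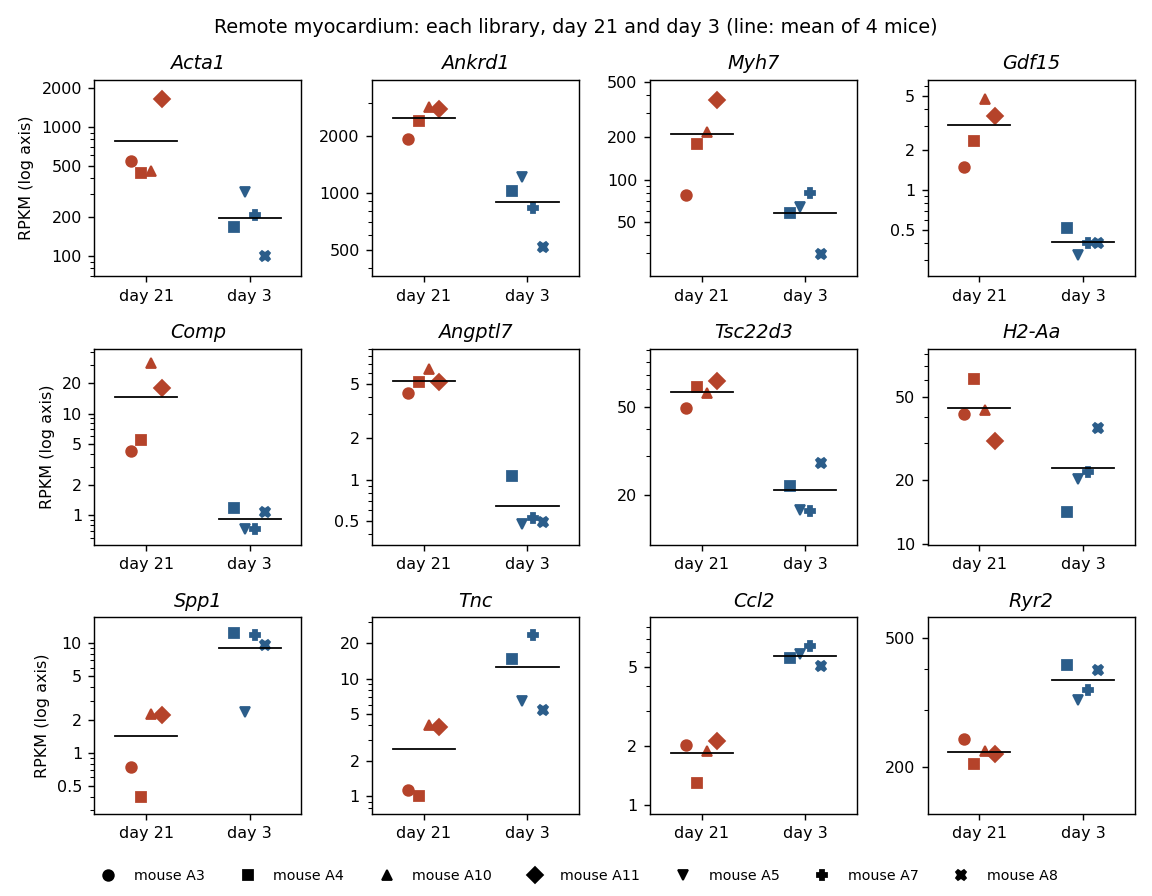
RPKM of 12 genes in each remote library on a log axis, with the 4 day 21 mice on the left and the 4 day 3 mice on the right of each panel, 1 symbol per mouse label (the square, A4, stands for 2 different mice) and a line at the mean of 4 mice. The groups do not overlap for Acta1, Ankrd1, Gdf15, Comp, Angptl7, Tsc22d3, Spp1, Tnc, Ccl2 and Ryr2, and they overlap for Myh7 and H2-Aa. For Acta1, Ankrd1, Comp, Angptl7, Spp1, Tnc and Ccl2 separate groups were a condition of the choice.

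Of 32 genes of calcium handling and ion channels 9 fell and 1 rose at day 21, with a median of -0.19. Ryr2, the channel that releases calcium from the sarcoplasmic reticulum (chromosome 13, 11553102 to 12106945), measured 243, 204, 223 and 219 RPKM at day 21 and 413, 322, 346 and 398 RPKM at day 3. All day 21 hearts were below all day 3 hearts, by -0.73 ± 0.10 (SE, limma adjusted p = 0.000467). Kcnj2, the main inward rectifier potassium channel, measured 19.7, 19.7, 16.1 and 12.1 RPKM at day 21 and 30.6, 28.9, 29.9 and 26 RPKM at day 3. The difference was -0.76 ± 0.14 (SE, limma adjusted p = 0.00191) without overlap. Cacna1c, the L-type calcium channel, stood at 15 ± 1.69 RPKM at day 21 and 23.4 ± 2.87 RPKM at day 3, and changed by -0.61 ± 0.10 (SE, limma adjusted p = 0.00118). Kcnd2 (-0.65 ± 0.13) and Kcnd3 (-0.52 ± 0.07), the pore subunits of the transient outward current, Kcnq1 (-0.39 ± 0.08), of the slow delayed rectifier, and Gja1 (-0.51 ± 0.12), connexin 43, fell too (log2, SE; limma adjusted p = 0.00335, 0.000467, 0.00461 and 0.012). Without A10 and A11, Kcnd2 was at -0.35. Kcna5, a voltage-gated potassium channel, was the member that rose: 11.9, 13.2, 15 and 16.2 RPKM at day 21 and 7.18, 7.01, 5.66 and 8.95 RPKM at day 3. The difference was 0.89 ± 0.19 (SE, limma adjusted p = 0.00574). The count of falling channels was 7 without A10 and A11 of day 21 and 10 without A3 and A4. Kcna5 (0.74) did not pass without A10 and A11 of day 21 (log2; limma adjusted p = 0.0599). Kcnq1 (-0.27) did not pass without A3 and A4 of day 21 (log2; limma adjusted p = 0.0685).

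Of the same list, Atp2a2, Pln and Slc8a1 did not pass the test. Atp2a2, the calcium pump SERCA2, measured 2571, 2344, 2080 and 2034 RPKM at day 21 and 2774, 2508, 2662 and 3312 RPKM at day 3, and its difference was -0.32 ± 0.13 (SE, limma adjusted p = 0.131). Pln, its inhibitor phospholamban, differed by -0.05 ± 0.15 (SE, limma adjusted p = 0.855), and Slc8a1, the sodium-calcium exchanger, by -0.07 ± 0.09 (SE, limma adjusted p = 0.638). Among the receptors that steer contraction, Adra1b, an alpha-1 adrenergic receptor, measured 5.44, 5.42, 5.01 and 5.53 RPKM at day 21 and 7.32, 10.1, 12.4 and 13.7 RPKM at day 3. Its day 21 values were narrow and all below day 3, by -0.87 ± 0.16 (SE, limma adjusted p = 0.00218). Adrb1, the beta-1 receptor, had a difference of -0.51 ± 0.11 (SE, limma adjusted p = 0.00771), and Pde3a, which breaks down cyclic AMP, one of -0.57 ± 0.09 (SE, limma adjusted p = 0.00112).

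Sarcomere genes moved both ways, with 4 of 28 higher, 2 lower and a median of -0.07. Ttn, the giant spring protein titin (chromosome 2, 76703980 to 76982547), measured 623, 542, 676 and 746 RPKM at day 21 and 1063, 954, 877 and 954 RPKM at day 3. The highest day 21 heart lay below the lowest day 3 heart, and the difference was -0.58 ± 0.11 (SE, limma adjusted p = 0.00267). Myom2, an M-band protein, measured 301, 342, 285 and 263 RPKM at day 21 and 235, 179, 182 and 206 RPKM at day 3. It rose by 0.57 ± 0.11 (SE, limma adjusted p = 0.00387). Myoz2, a Z-disc protein, rose by 0.47 ± 0.12 (SE, limma adjusted p = 0.0172) and Mybpc3, myosin binding protein C, by 0.36 ± 0.10 (SE, limma adjusted p = 0.0273). Myoz2 did not pass without day 21 mouse A4 or day 3 mouse A7 or A8 (limma adjusted p = 0.0539 to 0.0565) and Mybpc3 did not pass without day 21 mouse A3 or A4 or day 3 mouse A4, A7 or A8 (limma adjusted p = 0.0603 to 0.0806). Lmod2, an actin filament elongator, rose by 0.54 ± 0.17 (SE, limma adjusted p = 0.045) and did not pass without day 21 mouse A3, A4 or A11 or day 3 mouse A5, A7 or A8 (limma adjusted p = 0.0529 to 0.144). Myoz2 (0.35), Mybpc3 (0.28) and Lmod2 (0.34) did not pass without A3 and A4 of day 21 (log2; limma adjusted p = 0.148 to 0.324).

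Ttn and Ryr2 have long transcripts, and length moved with direction over the whole table. The median exonic length was 2.96 kb for genes called higher, 5.84 kb for genes called lower and 3.54 kb for all genes tested with a length. Among 858 genes over 8 kb, 2.45% were higher and 19.0% lower. Among 426 genes of up to 1 kb, 6.57% were higher and 1.41% lower. Pde3a (12302 bases), Prox1 (8390) and Zbtb20 (27143), which fell, are also over 8 kb. So are Col4a3 (8554) and Colec12 (8024), which rose. The part of length in the results for these genes or for Ttn, Ryr2, Cacna1c and the laminin Lama5 was not tested.

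**Figure D3:**
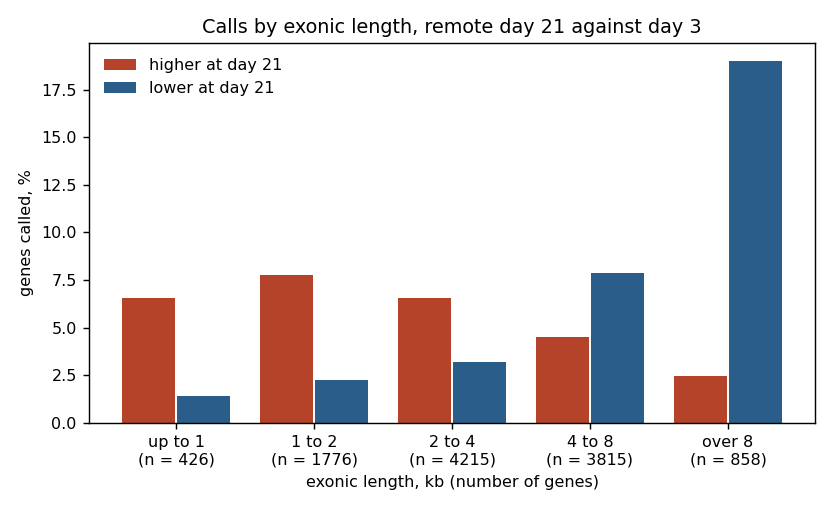
Bars show the percent of genes called higher (left bar) or lower (right bar) at day 21 in 5 classes of exonic length, with the number of genes under each. The share called lower is 1.41% up to 1 kb and 19.0% over 8 kb, and the share called higher is 6.57% and 2.45%.

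Genes of energy metabolism were mostly not called. Of 47 oxidative phosphorylation genes and 20 TCA cycle genes 0 passed in limma, 0 had an unadjusted p under 0.05, and the medians were -0.02 and -0.06. Of 46 genes of fatty acid uptake and oxidation, 1 rose (2.17%) and 2 fell (4.35%), against 5.72% and 5.78% over all genes tested. The 2 that fell were Ppargc1b, a coactivator of mitochondrial genes, with a difference of -0.63 ± 0.12 (SE, limma adjusted p = 0.00283), and Esrrg, a nuclear receptor that works with it, with one of -0.46 ± 0.09 (SE, limma adjusted p = 0.00467). Ppargc1b measured 4.42, 4.27, 4.81 and 4.91 RPKM at day 21 and 6.24, 8.07, 8.14 and 8.25 RPKM at day 3, with no overlap. Pdk4, the kinase that shuts pyruvate dehydrogenase, had a wide day 3 group, 212, 198, 262 and 212 RPKM at day 21 and 91.6, 125, 276 and 256 RPKM at day 3, and did not pass (0.38 ± 0.45 (SE, limma adjusted p = 0.635)). Ucp3, a mitochondrial uncoupling protein, was likewise split at day 3, at 21.6, 19.9, 18.8 and 14.9 RPKM at day 21 and 9.84, 19.8, 35.1 and 34.5 RPKM at day 3. Its 4 day 3 hearts enclosed the whole day 21 range. Esrrg (-0.33) did not pass without A10 and A11 of day 21 (log2; limma adjusted p = 0.0727).

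Scd4, a stearoyl-CoA desaturase of the heart, was among the genes with the largest rise: 32.3, 42.2, 62.1 and 34.1 RPKM at day 21 and 6.01, 11.6, 11.4 and 13 RPKM at day 3. All day 21 hearts stood more than 2 times above the highest day 3 heart, and the difference was 1.92 ± 0.33 (SE, limma adjusted p = 0.00205). Its scar levels were 0.388 ± 0.0941 RPKM at day 21 and 0.114 ± 0.0574 RPKM at day 3. Adh1, an alcohol dehydrogenase, measured 16.5, 16.5, 5.06 and 9.76 RPKM at day 21 and 3.05, 2.22, 1.69 and 3.57 RPKM at day 3. It rose by 1.74 ± 0.36 (SE, limma adjusted p = 0.00651). Its day 21 values were higher in A3 and A4 than in A10 and A11. Adh1 (1.18) did not pass without A3 and A4 of day 21 (log2; limma adjusted p = 0.0851).

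Of 48 matrix proteins other than collagens 11 rose and 2 fell, with a median of 0.36. The count was 3 higher and 4 lower without A10 and A11, and 21 higher and 0 lower without A3 and A4. The 2 that fell, Spp1 and Tnc, are the early matricellular proteins osteopontin and tenascin C. Spp1 (chromosome 5, 104435118 to 104441050) measured 0.751, 0.398, 2.28 and 2.23 RPKM at day 21 and 12.3, 2.34, 11.9 and 9.61 RPKM at day 3. The difference was -1.97 ± 0.38 (SE, limma adjusted p = 0.00397). The lowest day 3 heart, A5, was only just above the highest day 21 hearts. Tnc (chromosome 4, 63959785 to 64047015) measured 1.13, 1.01, 4.03 and 3.84 RPKM at day 21 and 14.8, 6.47, 23.6 and 5.36 RPKM at day 3. The difference was -1.87 ± 0.37 (SE, limma adjusted p = 0.0049). In both genes A3 and A4 were the lowest of all hearts. Scar levels were 30.9 ± 9.99 RPKM at day 21 and 907 ± 310.2 RPKM at day 3 for Spp1, and 11.9 ± 1.88 RPKM at day 21 and 169.7 ± 42.4 RPKM at day 3 for Tnc. Spp1 (-1.44) and Tnc (-1.24) did not pass without A3 and A4 of day 21 (log2; limma adjusted p = 0.0528 to 0.0675).

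The matrix genes that rose were led by Comp, cartilage oligomeric matrix protein (chromosome 8, 70373558 to 70382066), at 4.29, 5.48, 31 and 18 RPKM at day 21 and 1.18, 0.733, 0.737 and 1.07 RPKM at day 3. The groups lay apart, but A10 and A11 were several times higher than A3 and A4, and the difference of 2.65 ± 0.54 (SE, limma adjusted p = 0.00601) did not pass in limma-voom on recovered reads (limma adjusted p = 0.0565). The scar of the same hearts held 584 ± 93.6 RPKM at day 21 and 1.97 ± 0.366 RPKM at day 3, and how much scar tissue a remote piece contained was not tested. Fmod, a small leucine-rich proteoglycan of collagen fibrils, measured 1.25, 0.978, 3.76 and 3.45 RPKM at day 21 and 0.597, 0.362, 0.526 and 0.226 RPKM at day 3. It rose by 1.13 ± 0.28 (SE, limma adjusted p = 0.0153), against scar levels of 96.9 ± 22.3 RPKM at day 21 and 0.743 ± 0.265 RPKM at day 3. Angptl7, a secreted angiopoietin-like protein, measured 4.26, 5.17, 6.43 and 5.11 RPKM at day 21 and 1.06, 0.479, 0.53 and 0.491 RPKM at day 3. It was alike in the 4 day 21 hearts, rose by 1.93 ± 0.23 (SE, limma adjusted p = 0.000257) and had scar levels of 224 ± 109.7 RPKM at day 21 and 1.01 ± 0.817 RPKM at day 3. Wisp2, a matricellular protein of the CCN family, measured 15.8, 21.4, 33.2 and 23 RPKM at day 21 and 4.76, 6.05, 7.8 and 5.38 RPKM at day 3. It rose by 1.77 ± 0.35 (SE, limma adjusted p = 0.0042). Aspn, asporin, rose by 0.80 ± 0.18 (SE, limma adjusted p = 0.00779), Fbln5, an elastic fibre protein, by 0.71 ± 0.12 (SE, limma adjusted p = 0.00112), and Dcn, decorin, by 0.51 ± 0.12 (SE, limma adjusted p = 0.0127). Mfap5, a microfibril protein, measured 13.5, 15.5, 39.8 and 38.7 RPKM at day 21 and 12.7, 10.6, 12.9 and 6.43 RPKM at day 3. It rose by 1.14 ± 0.32 (SE, limma adjusted p = 0.0313), and did not pass without day 21 mouse A10 or A11 or day 3 mouse A5 or A8 (limma adjusted p = 0.054 to 0.1), and without A3 and A4 it was 1.83. Comp (1.61), Fmod (0.57), Aspn (0.66) and Mfap5 (0.45) did not pass without A10 and A11 of day 21 (log2; limma adjusted p = 0.0697 to 0.342). Dcn (0.47) did not pass without A3 and A4 of day 21 (log2; limma adjusted p = 0.0675).

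Fibrillar collagens themselves did not pass. Col1a1, the main chain of type I collagen, measured 9.64, 8.98, 33.8 and 31.7 RPKM at day 21 and 33.1, 29.3, 59.98 and 32.2 RPKM at day 3, and differed by -1.03 ± 0.46 (SE, limma adjusted p = 0.159). A3 and A4 were the lowest hearts, while A10 and A11 lay within the day 3 range. Col3a1 measured 59.1, 64, 159 and 153 RPKM at day 21 and 127, 124, 179 and 102 RPKM at day 3 and Col5a1 8.56, 8.26, 20.5 and 20.1 RPKM at day 21 and 14.8, 15.3, 22.2 and 14.4 RPKM at day 3, both with the same split among the day 21 hearts. Their differences were -0.40 ± 0.32 (SE, limma adjusted p = 0.455) and -0.30 ± 0.28 (SE, limma adjusted p = 0.528). Without A10 and A11, Col1a1, Col3a1 and Col5a1 were lower at day 21 (limma adjusted p = 0.0275, 0.0404 and 0.0409). With library weights Col1a1 was also called lower, at -1.54 (limma adjusted p = 0.00922). Col5a2, at 0.22 ± 0.30 (SE, limma adjusted p = 0.694), Postn, the matricellular protein periostin, at 0.54 ± 0.48 (SE, limma adjusted p = 0.508), Fn1, fibronectin, at -0.35 ± 0.33 (SE, limma adjusted p = 0.538) and Timp1, a protease inhibitor, at -0.43 ± 0.45 (SE, limma adjusted p = 0.584), did not pass either. Of 30 genes of fibrillar collagens and their processing, 3 rose and 0 fell, and the 3 modify or trim collagen: Pcolce2 (an enhancer of procollagen cleavage, 0.81 ± 0.14), Plod2 (a lysyl hydroxylase, 0.47 ± 0.10) and P4ha1 (a prolyl hydroxylase, 0.46 ± 0.12; log2, SE; limma adjusted p = 0.00151, 0.00545 and 0.0154). P4ha1 did not pass without day 21 mouse A11 or day 3 mouse A8 (limma adjusted p = 0.0507 to 0.0527). Among basement membrane genes, Lama5, the laminin alpha-5 chain, measured 9.73, 8.99, 8.09 and 12.2 RPKM at day 21 and 22.6, 14.7, 19.2 and 24.1 RPKM at day 3. The difference was -0.97 ± 0.17 (SE, limma adjusted p = 0.00173). Col4a3 rose by 0.76 ± 0.16 (SE, limma adjusted p = 0.00604). Plod2 (0.33), P4ha1 (0.29) and Col4a3 (0.49) did not pass without A10 and A11 of day 21 (log2; limma adjusted p = 0.0817 to 0.17).

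Of 23 genes of resting fibroblasts 10 rose and 0 fell, with a median of 0.33, and 4 were higher without A10 and A11 and 9 without A3 and A4. Gsn, the actin-severing protein gelsolin (chromosome 2, 35256380 to 35307892), measured 557, 582, 617 and 606 RPKM at day 21 and 348, 323, 282 and 412 RPKM at day 3. It rose by 0.80 ± 0.13 (SE, limma adjusted p = 0.00112). Pi16, a marker of adventitial fibroblasts, measured 29, 30.03, 49.1 and 45.1 RPKM at day 21 and 20.6, 19.5, 18.1 and 16.5 RPKM at day 3. It rose by 0.97 ± 0.20 (SE, limma adjusted p = 0.005). Mgp, matrix Gla protein, an inhibitor of calcification, measured 183, 175, 304 and 357 RPKM at day 21 and 165, 93, 102 and 96.8 RPKM at day 3. It rose by 1.12 ± 0.26 (SE, limma adjusted p = 0.0108). Apod, apolipoprotein D, rose by 0.77 ± 0.17 (SE, limma adjusted p = 0.00851). Pdgfra, a receptor on most cardiac fibroblasts, differed by 0.11 ± 0.07 (SE, limma adjusted p = 0.348) and did not pass. The summed level of the 23 genes was 1740 to 2047 RPKM at day 21 and 1102 to 1377 RPKM at day 3. Activated fibroblast genes gave 1 higher (4.17%) and 2 lower (8.33%) of 24, near the 5.72% and 5.78% over all genes tested. Their summed level was 280.1 to 740.5 RPKM at day 21 and 255.9 to 468.8 RPKM at day 3. In bulk tissue, more cells of a type and more RNA per cell cannot be told apart. Pi16 (0.64) and Mgp (0.69) did not pass without A10 and A11 of day 21 (log2; limma adjusted p = 0.0741 to 0.129). Apod (0.53) did not pass without A3 and A4 of day 21 (log2; limma adjusted p = 0.0988).

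Of 29 proteases and their inhibitors 4 rose and 6 fell. Timp3, a matrix-bound inhibitor of metalloproteinases (chromosome 10, 86300372 to 86349506), measured 58.8, 53.5, 61.8 and 69.1 RPKM at day 21 and 33.6, 25.9, 20.6 and 23.4 RPKM at day 3. It rose by 1.22 ± 0.20 (SE, limma adjusted p = 0.00123). Timp4, of the same family, rose by 1.33 ± 0.42 (SE, limma adjusted p = 0.0467), with groups that overlapped, and did not pass without day 21 mouse A3, A4 or A11 or day 3 mouse A4, A5 or A7 (limma adjusted p = 0.0682 to 0.124). Mmp2, gelatinase A, rose by 0.72 ± 0.17 (SE, limma adjusted p = 0.0124). Those that fell were proteases and an activator receptor, at low levels: Mmp9 (-0.44 ± 0.09), Mmp15 (-0.44 ± 0.13), Adam8 (-0.39 ± 0.09), Adam12 (-0.38 ± 0.09), Adam19 (-0.80 ± 0.25) and Plaur, the urokinase receptor (-0.46 ± 0.11; log2, SE; limma adjusted p at most 0.0472, for Adam19). Adam19 did not pass without day 21 mouse A3, A4 or A11 or day 3 mouse A4, A5, A7 or A8 (limma adjusted p = 0.0701 to 0.121), nor Mmp15 without day 21 mouse A4, A10 or A11 or day 3 mouse A5, A7 or A8 (limma adjusted p = 0.0596 to 0.0882). Mmp2 (0.50), Mmp15 (-0.35) and Adam19 (-1.02) did not pass without A10 and A11 of day 21 (log2; limma adjusted p = 0.0579 to 0.181). Timp4 (1.04), Adam8 (-0.30), Adam12 (-0.30), Adam19 (-0.58) and Plaur (-0.38) did not pass without A3 and A4 of day 21 (log2; limma adjusted p = 0.0828 to 0.289).

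Of 34 cytokines, chemokines and receptors 5 fell and 0 rose at day 21, although the list median was 0.01. Ccl2, which attracts monocytes (chromosome 11, 82035571 to 82037453), measured 2.02, 1.29, 1.88 and 2.11 RPKM at day 21 and 5.59, 5.83, 6.42 and 5.09 RPKM at day 3. The difference was -1.26 ± 0.17 (SE, limma adjusted p = 0.000308). Ccl7, a related chemokine, measured 1.62, 1.64, 1.7 and 1.53 RPKM at day 21 and 2.78, 5.03, 6.39 and 4.28 RPKM at day 3. The difference was -1.06 ± 0.23 (SE, limma adjusted p = 0.00785). The 4 day 21 hearts were nearly alike in Ccl7 and below all of day 3. Cxcl5, at -0.62 ± 0.17 (SE, limma adjusted p = 0.0226), and Il1b, at -0.56 ± 0.17 (SE, limma adjusted p = 0.035), also fell, with groups that overlapped, but Il1b did not pass without day 21 mouse A4, A10 or A11 or day 3 mouse A4, A5 or A8 (limma adjusted p = 0.0639 to 0.119), and Cxcl5 did not pass without day 21 mouse A4 or A11 or day 3 mouse A8 (limma adjusted p = 0.0522 to 0.0554). The fifth, Cxcl1, a neutrophil chemokine, changed by -0.49 ± 0.14 (SE, limma adjusted p = 0.0315), and did not pass without day 21 mouse A4, A10 or A11 or day 3 mouse A4, A7 or A8 (limma adjusted p = 0.0578 to 0.0968). Cxcl5 (-0.62), Il1b (-0.41) and Cxcl1 (-0.34) did not pass without A10 and A11 of day 21 (log2; limma adjusted p = 0.0826 to 0.22). Cxcl5 (-0.61) did not pass without A3 and A4 of day 21 (log2; limma adjusted p = 0.0896).

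Of 39 monocyte and macrophage genes 5 fell and 0 rose, with a median of -0.09. Arg1, arginase 1, a gene of early wound macrophages (chromosome 10, 24915221 to 24927484), was listed at 0, 0, 0.231 and 0.0572 RPKM at day 21 and 0.948, 0.516, 2.52 and 1.06 RPKM at day 3. It changed by -1.01 ± 0.16 (SE, limma adjusted p = 0.00112), on a scale that understates changes at such levels. Cx3cr1, the fractalkine receptor, measured 1.39, 1.38, 2.65 and 1.92 RPKM at day 21 and 3.28, 4.36, 5.11 and 3.58 RPKM at day 3. It changed by -0.85 ± 0.24 (SE, limma adjusted p = 0.0285), and did not pass without day 21 mouse A3, A4 or A11 or day 3 mouse A5, A7 or A8 (limma adjusted p = 0.0513 to 0.0812). Cd68, a lysosomal macrophage protein, measured 6.14, 7.47, 5.89 and 6.41 RPKM at day 21 and 9.11, 9.82, 11.5 and 7.54 RPKM at day 3. It changed by -0.48 ± 0.14 (SE, limma adjusted p = 0.0346), and did not pass without day 21 mouse A3, A10 or A11 or day 3 mouse A4, A5 or A7 (limma adjusted p = 0.0648 to 0.111). Chil3, a chitinase-like protein, changed by -0.43 ± 0.09 (SE, limma adjusted p = 0.00383). Lyz2, lysozyme, at 191 ± 21.5 RPKM at day 21 and 171 ± 16.7 RPKM at day 3, Ccr2, the receptor for Ccl2, at 2.07 ± 0.313 RPKM at day 21 and 2.73 ± 1.01 RPKM at day 3, and Cd163, a scavenger receptor of resident macrophages, at 7.17 ± 1.41 RPKM at day 21 and 5.08 ± 0.613 RPKM at day 3, did not pass (SD, n = 4 each; limma adjusted p = 0.448, 0.326 and 0.0562), though Cd163 did without day 21 mouse A4 (limma adjusted p = 0.0391). The summed level of the list was 581.2 to 691.2 RPKM at day 21 and 552.6 to 655 RPKM at day 3. The macrophage count was 3 lower without A10 and A11, and 3 higher and 2 lower without A3 and A4. Cd68 (-0.42) did not pass without A10 and A11 of day 21 (log2; limma adjusted p = 0.158). Cx3cr1 (-0.62) and Cd68 (-0.54) did not pass without A3 and A4 of day 21 (log2; limma adjusted p = 0.0668 to 0.215).

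Neutrophil genes were near the floor in both groups. Of the 8 tested, 4 fell and 0 rose, and their summed level was 1.65 to 5.71 RPKM at day 21 and 3.72 to 12.4 RPKM at day 3. S100a8, an alarmin that neutrophils hold in bulk, measured 0.934, 0.218, 0.491 and 0.608 RPKM at day 21 and 2.66, 0.862, 1.79 and 2.96 RPKM at day 3. It changed by -0.93 ± 0.24 (SE, limma adjusted p = 0.0197), and did not pass without day 21 mouse A4 or day 3 mouse A4 or A8 (limma adjusted p = 0.0627 to 0.0694). Mmp9 measured 0.167, 0.0714, 0.11 and 0.251 RPKM at day 21 and 0.414, 0.83, 0.547 and 0.476 RPKM at day 3. Of the 4 lymphocyte and natural killer genes tested none passed in limma, and 1 of them was under an unadjusted p of 0.05. S100a8 (-0.94) did not pass without A10 and A11 of day 21 (log2; limma adjusted p = 0.082). S100a8 (-0.93) did not pass without A3 and A4 of day 21 (log2; limma adjusted p = 0.0649).

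Saa3 and Hp, both acute-phase genes, also fell. Saa3, a serum amyloid protein, measured 0.0679, 0, 0.112 and 0.0162 RPKM at day 21 and 1.1, 0.418, 1.47 and 1 RPKM at day 3. The difference was -0.90 ± 0.17 (SE, limma adjusted p = 0.00259). Hp, haptoglobin, stood at 0.467 ± 0.351 RPKM at day 21 and 2.14 ± 1.19 RPKM at day 3. The difference was -1.05 ± 0.21 (SE, limma adjusted p = 0.00374). Cell cycle genes did not pass in limma in 52 of 52 cases, with a median of -0.11 and 6 at an unadjusted p under 0.05. Over all 11390 genes tested, 3067 were under that limit. Mki67, a proliferation marker, measured 1.89, 3.81, 5.14 and 1.59 RPKM at day 21 and 5.03, 6.23, 8.04 and 2.45 RPKM at day 3, and differed by -0.66 ± 0.31 (SE, limma adjusted p = 0.188). Fos and Egr1, transcription factors of the immediate early response, were lower: Fos measured 1.48, 1.03, 2.36 and 1.31 RPKM at day 21 and 10.5, 7.17, 5.22 and 5.43 RPKM at day 3. It changed by -1.65 ± 0.43 (SE, limma adjusted p = 0.0215), and Egr1 measured 0.342, 0.383, 1.28 and 0.584 RPKM at day 21 and 1.75, 3.49, 2.35 and 1.68 RPKM at day 3. It changed by -1.01 ± 0.25 (SE, limma adjusted p = 0.0155). In neither gene did the groups overlap. Fos did not pass without day 21 mouse A4 or day 3 mouse A4 (limma adjusted p = 0.0601 to 0.0649). Ier5 and Klf6, of the same class, rose, by 0.82 ± 0.16 (SE, limma adjusted p = 0.00364) and 0.64 ± 0.16 (SE, limma adjusted p = 0.0166), though Klf6 did not pass without day 21 mouse A4 or day 3 mouse A7 (limma adjusted p = 0.0539 to 0.0576). Fos (-1.80) did not pass without A10 and A11 of day 21 (log2; limma adjusted p = 0.0613). Fos (-1.49), Egr1 (-0.77) and Klf6 (0.51) did not pass without A3 and A4 of day 21 (log2; limma adjusted p = 0.114 to 0.135).

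Antigen presentation genes had the highest list median, 0.45, with 10 of 24 risen and 0 fallen, and 24 of 24 positive. The rise was led by the major histocompatibility complex class II genes, which show peptides to helper T cells. H2-Aa (chromosome 17, 34282744 to 34287823) measured 41.2, 60.4, 43.3 and 30.9 RPKM at day 21 and 14.1, 20.3, 21.9 and 35.7 RPKM at day 3. H2-Eb1 (chromosome 17, 34305867 to 34316674) measured 48.6, 68.2, 48.9 and 39.5 RPKM at day 21 and 15.3, 25.7, 25.5 and 40.5 RPKM at day 3. In both, day 3 mouse A8 lay inside the day 21 range and the other 3 day 3 hearts lay below it. The differences were 0.94 ± 0.24 (SE, limma adjusted p = 0.0169) and 0.96 ± 0.24 (SE, limma adjusted p = 0.0179). Cd74, the invariant chain that escorts class II molecules, rose by 0.90 ± 0.23 (SE, limma adjusted p = 0.0191), and H2-Ab1 by 0.81 ± 0.22 (SE, limma adjusted p = 0.0245). H2-Aa did not pass without day 21 mouse A4 or day 3 mouse A4 (limma adjusted p = 0.0573 to 0.0588), H2-Eb1 not without day 21 mouse A4 or day 3 mouse A4 (limma adjusted p = 0.0583 to 0.0613), Cd74 not without day 21 mouse A4 or day 3 mouse A4 (limma adjusted p = 0.0636 to 0.0643) and H2-Ab1 not without day 21 mouse A3 or A4 or day 3 mouse A4 or A7 (limma adjusted p = 0.0504 to 0.0807). Of class I, H2-D1 rose by 0.51 ± 0.12 (SE, limma adjusted p = 0.00976) and H2-K1 by 0.52 ± 0.16 (SE, limma adjusted p = 0.0408), and class I genes are near-identical copies that the counting could split. H2-K1 did not pass without day 21 mouse A3 or A4 or day 3 mouse A4, A5 or A7 (limma adjusted p = 0.0656 to 0.142). Psmb10, a subunit of the immunoproteasome, rose by 0.55 ± 0.11 (SE, limma adjusted p = 0.00473). The count was 13 without A10 and A11 and 2 without A3 and A4. H2-Aa (0.72), H2-Eb1 (0.77), Cd74 (0.67), H2-Ab1 (0.56), H2-D1 (0.37) and H2-K1 (0.35) did not pass without A3 and A4 of day 21 (log2; limma adjusted p = 0.089 to 0.271).

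The bases before H2-Aa and H2-Eb1 are shown because they are the class II genes whose values are given by library. Capitals mark CTGATTGG or, on the other strand, CCAATCAG, the Y box of class II promoters, which the factor NF-Y binds. Both sequences are RefSeq windows of 250 bases before the start in GRCm38.p6.
H2-Aa, chr17:34287824-34288073, minus strand: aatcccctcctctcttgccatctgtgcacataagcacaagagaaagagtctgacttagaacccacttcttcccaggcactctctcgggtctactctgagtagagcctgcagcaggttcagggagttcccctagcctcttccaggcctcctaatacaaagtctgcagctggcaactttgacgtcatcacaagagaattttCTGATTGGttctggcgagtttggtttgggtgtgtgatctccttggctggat
H2-Eb1, chr17:34305617-34305866, plus strand: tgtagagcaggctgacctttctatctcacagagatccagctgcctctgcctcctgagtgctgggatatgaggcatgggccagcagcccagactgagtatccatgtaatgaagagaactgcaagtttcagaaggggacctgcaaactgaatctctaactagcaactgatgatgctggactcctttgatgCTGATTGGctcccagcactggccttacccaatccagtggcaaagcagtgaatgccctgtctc
The motif began 51 bases before the start in H2-Aa and 62 bases before it in H2-Eb1. It was in 5.43% of the first windows of the tested genes, in 4 of the 7 called members of the list with a window and in 4 of the 11 others. Those 4 called members were H2-Aa, H2-Eb1 and the class I genes H2-D1 and H2-T23. Cd74 and H2-Ab1 were not among them.

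Interferon-stimulated genes gave 9 of 58 higher and 0 lower, with a median of 0.23. Gbp9, an interferon-induced guanylate binding protein, measured 12, 16.1, 11.3 and 9.07 RPKM at day 21 and 7.5, 8.39, 6.77 and 7.59 RPKM at day 3. It rose by 0.59 ± 0.13 (SE, limma adjusted p = 0.00805). Ifit2, an antiviral protein, measured 13.2, 17.4, 11.6 and 10.7 RPKM at day 21 and 8.72, 9.1, 7.73 and 5.79 RPKM at day 3. It rose by 0.68 ± 0.19 (SE, limma adjusted p = 0.0282), and did not pass without day 21 mouse A3 or A4 or day 3 mouse A7 or A8 (limma adjusted p = 0.0552 to 0.0957). Irf7, a transcription factor of the response, rose by 0.54 ± 0.14 (SE, limma adjusted p = 0.0161) and Rsad2, the antiviral enzyme viperin, by 0.57 ± 0.16 (SE, limma adjusted p = 0.0271). Rsad2 did not pass without day 21 mouse A3, A4 or A11 or day 3 mouse A4 or A8 (limma adjusted p = 0.0591 to 0.0904). A4 of day 21 had the highest value in Gbp9 and Ifit2. The count was 16 without A10 and A11 and 0 without A3 and A4. Irf7 (0.52) did not pass without A10 and A11 of day 21 (log2; limma adjusted p = 0.0672). Gbp9 (0.38), Ifit2 (0.47), Irf7 (0.56) and Rsad2 (0.35) did not pass without A3 and A4 of day 21 (log2; limma adjusted p = 0.0505 to 0.27).

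Acute-phase and glucocorticoid-responsive genes gave 11 of 32 higher and 3 lower, with a median of 0.39. Tsc22d3, the glucocorticoid-induced leucine zipper (chromosome X, 140539528 to 140600659), measured 49.3, 61.4, 57.8 and 65.5 RPKM at day 21 and 22.1, 17.1, 17.1 and 28.1 RPKM at day 3. The day 21 hearts were alike and all above day 3, by 1.45 ± 0.25 (SE, limma adjusted p = 0.00163). Fkbp5, a co-chaperone of the glucocorticoid receptor, measured 5.26, 4.38, 6.99 and 16.8 RPKM at day 21 and 2.95, 1.92, 2.34 and 2.31 RPKM at day 3, with A11 the highest. It rose by 1.31 ± 0.30 (SE, limma adjusted p = 0.0108). Ddit4, an inhibitor of mTORC1, measured 21.4, 29.6, 40.6 and 40.1 RPKM at day 21 and 9.44, 9.43, 9.52 and 20.2 RPKM at day 3. It rose by 1.40 ± 0.33 (SE, limma adjusted p = 0.0133). Zbtb16, a zinc finger protein that glucocorticoids induce, rose by 1.04 ± 0.31 (SE, limma adjusted p = 0.037). The metallothioneins Mt1, at 0.82 ± 0.17 (SE, limma adjusted p = 0.00488), and Mt2, at 0.99 ± 0.31 (SE, limma adjusted p = 0.0444), rose, with Mt2 not passing without day 21 mouse A4, A10 or A11 or day 3 mouse A4, A5, A7 or A8 (limma adjusted p = 0.0512 to 0.131). Cebpb and Cebpd, transcription factors of the acute phase, rose by 0.98 ± 0.22 (SE, limma adjusted p = 0.00804) and 0.97 ± 0.25 (SE, limma adjusted p = 0.0177), and Nfkbia, the inhibitor of NF-kappa B, by 0.68 ± 0.15 (SE, limma adjusted p = 0.00751). Zbtb16 did not pass without day 21 mouse A3 or A11 or day 3 mouse A5 or A7 (limma adjusted p = 0.0777 to 0.107), nor Cebpd without day 21 mouse A10 or day 3 mouse A4 (limma adjusted p = 0.0502 to 0.0509). Sgk1, a kinase that steroids induce, differed by 0.40 ± 0.17 (SE, limma adjusted p = 0.134) and did not pass. The count was 3 higher and 4 lower without A10 and A11 and 12 higher and 2 lower without A3 and A4. Fkbp5 (0.79), Ddit4 (1.07), Zbtb16 (0.86), Mt2 (0.63), Cebpb (0.84) and Cebpd (0.76) did not pass without A10 and A11 of day 21 (log2; limma adjusted p = 0.0613 to 0.258). Zbtb16 (1.22) did not pass without A3 and A4 of day 21 (log2; limma adjusted p = 0.0608).

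Clock genes gave 3 of 24 higher and 2 lower. Ciart, a repressor in the circadian clock, measured 7.01, 7.48, 3.38 and 6.63 RPKM at day 21 and 1.83, 0.674, 0.33 and 1.16 RPKM at day 3. It rose by 1.85 ± 0.45 (SE, limma adjusted p = 0.0163), and did not pass in limma-voom on recovered reads (limma adjusted p = 0.0877). Per2, a core clock repressor, measured 5.56, 5.36, 4.1 and 4.79 RPKM at day 21 and 3.23, 0.901, 0.789 and 1.31 RPKM at day 3. It rose by 1.30 ± 0.35 (SE, limma adjusted p = 0.0251), and did not pass without day 21 mouse A3 or A4 or day 3 mouse A5, A7 or A8 (limma adjusted p = 0.0545 to 0.0711). Nfil3, which is in antiphase to the output factor Dbp, measured 4.45, 4.84, 4.21 and 4.88 RPKM at day 21 and 6.44, 6.04, 7.89 and 7.35 RPKM at day 3. It changed by -0.50 ± 0.12 (SE, limma adjusted p = 0.00978). Clock itself changed by -0.44 ± 0.12 (SE, limma adjusted p = 0.0226), and did not pass without day 21 mouse A3 or A4 or day 3 mouse A7 or A8 (limma adjusted p = 0.0502 to 0.0767). Arntl, the partner of Clock, at 1.1 ± 0.663 RPKM at day 21 and 2.89 ± 0.837 RPKM at day 3, and Dbp, at 33.8 ± 7.25 RPKM at day 21 and 16.4 ± 5.08 RPKM at day 3, did not pass, although in each the groups did not overlap (limma adjusted p = 0.146 and 0.196). The hour of harvest is not given in the sources used here, so that day and hour cannot be told apart for clock genes, nor for Tsc22d3, Per2 and others that follow the daily steroid rhythm. Per2 (1.43) did not pass without A10 and A11 of day 21 (log2; limma adjusted p = 0.0715). Ciart (1.59), Per2 (1.18) and Clock (-0.29) did not pass without A3 and A4 of day 21 (log2; limma adjusted p = 0.11 to 0.215).

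The window before Ciart is shown because it was the clock gene with the largest rise. Capitals mark the E-box CACGTG, which reads the same on both strands and which CLOCK and its partner bind. The sequence is the RefSeq window of 250 bases before the start in GRCm38.p6.
Ciart, chr3:95882229-95882478, minus strand: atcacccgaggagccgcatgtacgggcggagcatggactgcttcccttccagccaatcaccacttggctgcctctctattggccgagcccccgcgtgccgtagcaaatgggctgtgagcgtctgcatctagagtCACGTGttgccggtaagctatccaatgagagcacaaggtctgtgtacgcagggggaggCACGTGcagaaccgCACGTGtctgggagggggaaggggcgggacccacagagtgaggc
Its matches began 116, 58 and 44 bases before the start. An E-box was in 8.60% of the first windows of the tested genes, in 1 of the 4 called clock genes with a window and in 5 of the 16 others.

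Endothelial genes gave 14 of 39 higher and 2 lower, with a median of 0.17, and 10 higher and 2 lower without either day 21 pair. Rgcc, a cell cycle regulator enriched in capillary endothelium, measured 35.5, 42.5, 42.5 and 62.2 RPKM at day 21 and 15.3, 14.8, 16.8 and 24 RPKM at day 3. It rose by 1.31 ± 0.21 (SE, limma adjusted p = 0.00112). Aqp1, the water channel of capillaries (chromosome 6, 55336432 to 55348555), measured 197, 166, 139 and 179.8 RPKM at day 21 and 87.7, 89.2, 73.8 and 107 RPKM at day 3. It rose by 0.92 ± 0.17 (SE, limma adjusted p = 0.00249). Sox17, a transcription factor of arterial endothelium, measured 3.71, 3.63, 3.5 and 4.51 RPKM at day 21 and 2.01, 1.54, 2.03 and 2.53 RPKM at day 3. It rose by 0.68 ± 0.10 (SE, limma adjusted p = 0.000517). Tie1, an endothelial receptor, rose by 0.53 ± 0.11 (SE, limma adjusted p = 0.00397), Gpihbp1, which holds lipoprotein lipase on capillaries, by 0.48 ± 0.11 (SE, limma adjusted p = 0.00797), and Robo4 by 0.48 ± 0.10 (SE, limma adjusted p = 0.00455). Kdr, the main receptor for VEGF, was one of the 2 that fell: it stood at 30.4 ± 3.38 RPKM at day 21 and 46.5 ± 2.97 RPKM at day 3. The difference was -0.60 ± 0.13 (SE, limma adjusted p = 0.00697). Pecam1, a general endothelial marker, measured 43.5, 43.4, 40.8 and 43.7 RPKM at day 21 and 36.7, 41.4, 36 and 37.5 RPKM at day 3 and at 0.17 ± 0.06 (SE, limma adjusted p = 0.0671) did not pass, though it did without day 3 mouse A5 (limma adjusted p = 0.0349). The summed level of the 39 genes was 1587 to 1909 RPKM at day 21 and 1465 to 1599 RPKM at day 3, ranges that overlap. Of 21 pericyte and smooth muscle genes 2 rose (9.52%) and 1 fell (4.76%), near the shares over all genes tested (5.72% and 5.78%). Rgs5, a pericyte marker, measured 311, 317, 261 and 265 RPKM at day 21 and 231, 203, 182 and 217 RPKM at day 3. It rose by 0.47 ± 0.10 (SE, limma adjusted p = 0.00467). Gpihbp1 (0.44) and Rgs5 (0.34) did not pass without A3 and A4 of day 21 (log2; limma adjusted p = 0.0507 to 0.0634).

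**Figure D4:**
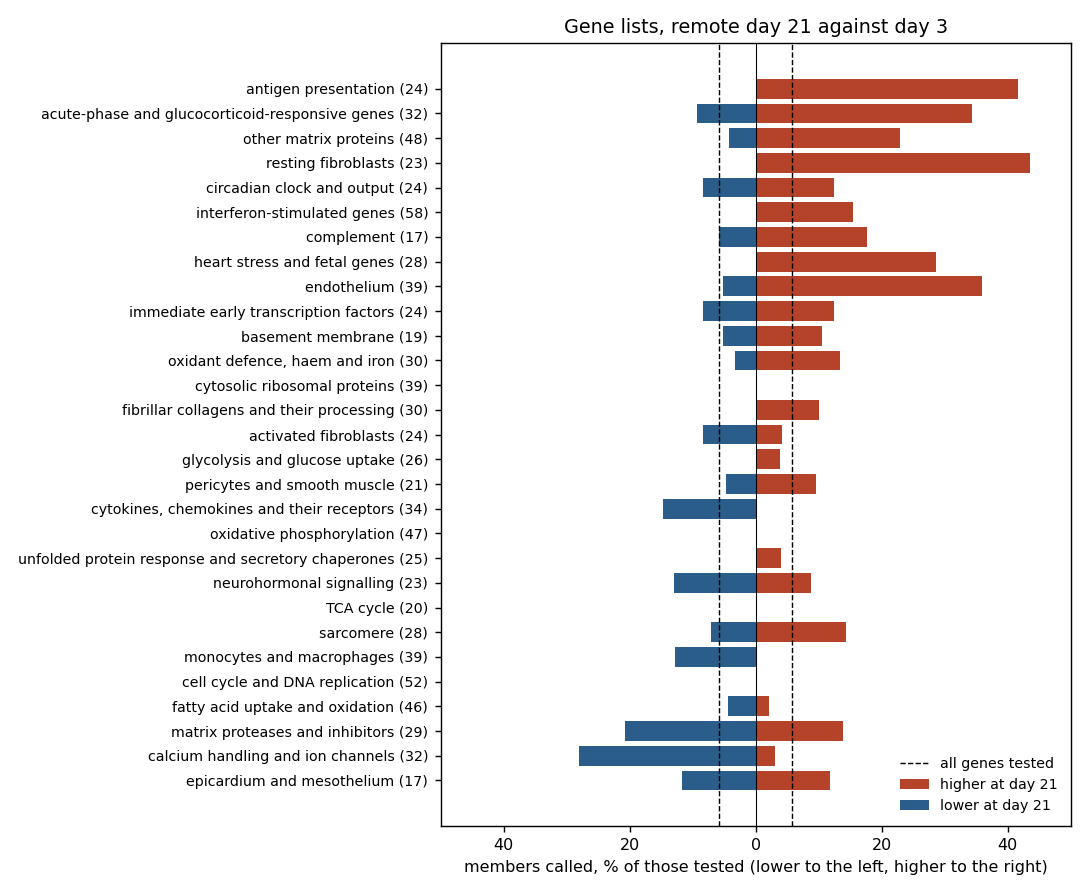
For each gene list with at least 15 genes tested (number in brackets), bars show the percent of members called higher at day 21 to the right and called lower to the left, and lists are ordered by their median log2 difference. Dashed lines mark the percent over all genes tested, 5.72% higher and 5.78% lower; antigen presentation (10 of 24), resting fibroblasts (10 of 23) and endothelium (14 of 39) reach furthest right and calcium handling and ion channels (9 of 32) furthest left.

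Prox1, a homeobox factor of lymphatic endothelium and of cardiomyocytes (chromosome 1, 190118035 to 190170714), was among the clearest falls. It measured 6.02, 6.07, 6.5 and 5.01 RPKM at day 21 and 13.3, 11.5, 11.5 and 13.5 RPKM at day 3, with narrow groups that lay far apart, and a difference of -0.96 ± 0.12 (SE, limma adjusted p = 0.000257). The other 5 lymphatic genes tested were not called. Of 17 epicardial and mesothelial genes 2 rose and 2 fell. Aldh1a2, which makes retinoic acid and is high in epicardium, measured 3.02, 2.94, 6.39 and 4.16 RPKM at day 21 and 10.5, 9.2, 14.1 and 5.42 RPKM at day 3. It changed by -1.06 ± 0.22 (SE, limma adjusted p = 0.00611), whereas Aldh1a1, an enzyme with the same activity, measured 23.4, 23, 18.4 and 18.1 RPKM at day 21 and 9.45, 10.8, 11.1 and 9.44 RPKM at day 3. It rose by 0.95 ± 0.16 (SE, limma adjusted p = 0.00126). Markers of other tissues gave few calls: Acta1 was the only called gene of 6 skeletal muscle genes, and of 2 lung and 7 red cell genes 0 were called by limma and 0 had an unadjusted p under 0.05. On the atrial list, 3 of 11 rose and 2 fell. Its summed level was 851.2 to 1572 RPKM at day 21 and 441.9 to 793.2 RPKM at day 3. Nppa, which did not pass, is one of its members and held most of the difference between the mean sums. The part of atrial tissue in the rise of Dkk3, a secreted protein of the dickkopf family at 3.18, 3.65, 13.4 and 9.87 RPKM at day 21 and 1.78, 1.86, 1.92 and 1.06 RPKM at day 3, was not tested. Dkk3 rose by 1.50 ± 0.37 (SE, limma adjusted p = 0.0169) and did not pass without day 21 mouse A10 or A11 or day 3 mouse A8 (limma adjusted p = 0.0512 to 0.0532). Without A3 and A4 it was 2.25. Dkk3 (0.75) did not pass without A10 and A11 of day 21 (log2; limma adjusted p = 0.189). Aldh1a2 (-0.74) did not pass without A3 and A4 of day 21 (log2; limma adjusted p = 0.0801).

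Of 17 complement genes 3 rose and 1 fell. Over all genes tested 5.72% were higher and 5.78% lower. The shares called higher of the unfolded protein response (4%) and glycolysis (3.85%) genes below lie near that. Colec12, a collectin, rose by 0.54 ± 0.12 (SE, limma adjusted p = 0.00697) and Serping1, the C1 inhibitor, by 0.42 ± 0.13 (SE, limma adjusted p = 0.0356), though Serping1 did not pass without day 21 mouse A4, A10 or A11 or day 3 mouse A5, A7 or A8 (limma adjusted p = 0.0549 to 0.109). C3ar1, the receptor for complement fragment C3a on myeloid cells, changed by -0.35 ± 0.10 (SE, limma adjusted p = 0.0265), and did not pass without day 21 mouse A3, A4 or A11 or day 3 mouse A5 or A7 (limma adjusted p = 0.0502 to 0.0851). Of 30 genes of oxidant defence, haem and iron, 4 rose and 1 fell, the metallothioneins among them. Of 25 genes of the unfolded protein response 1 rose: Ddit3, the factor CHOP, measured 9.02, 10.2, 8.64 and 9.49 RPKM at day 21 and 6.09, 6.29, 7.16 and 6.55 RPKM at day 3. It rose by 0.46 ± 0.09 (SE, limma adjusted p = 0.00419). Of 6 adipocyte genes 2 rose, Pparg, the master factor of fat cells, by 0.51 ± 0.12 (SE, limma adjusted p = 0.0108), and Fabp4, a fatty acid binding protein that capillaries also hold, by 0.45 ± 0.10 (SE, limma adjusted p = 0.00771). Pmp22, a myelin protein, was the called gene of 6 Schwann cell and neuronal genes, at 0.64 ± 0.14 (SE, limma adjusted p = 0.00751). Of 26 glycolysis genes 1 rose, Pfkfb3, by 0.48 ± 0.13 (SE, limma adjusted p = 0.0221), and did not pass without day 21 mouse A4 or day 3 mouse A4 or A7 (limma adjusted p = 0.0548 to 0.0668). Of 23 neurohormonal genes 2 rose, Nppb and Ace, and 3 fell. Ace, the angiotensin converting enzyme, measured 21.8, 22.3, 26.7 and 27.9 RPKM at day 21 and 14.4, 18.1, 15.3 and 14 RPKM at day 3. It rose by 0.64 ± 0.17 (SE, limma adjusted p = 0.0226), and did not pass without day 21 mouse A10 or A11 or day 3 mouse A4 or A8 (limma adjusted p = 0.0557 to 0.0651). Of 9 mitochondrially encoded transcripts mt-Nd5 fell, at -0.73 ± 0.21 (SE, limma adjusted p = 0.0282), and did not pass without day 21 mouse A10 or A11 or day 3 mouse A4 or A8 (limma adjusted p = 0.0548 to 0.0997). Of 39 cytosolic ribosomal protein genes 0 were called by limma and 3 had an unadjusted p under 0.05. Colec12 (0.47), Serping1 (0.33), C3ar1 (-0.38), Pmp22 (0.39), Pfkfb3 (0.54), Ace (0.50) and mt-Nd5 (-0.41) did not pass without A10 and A11 of day 21 (log2; limma adjusted p = 0.0503 to 0.279). Serping1 (0.50), C3ar1 (-0.31), Pparg (0.42), Fabp4 (0.31) and Pfkfb3 (0.42) did not pass without A3 and A4 of day 21 (log2; limma adjusted p = 0.0518 to 0.13).

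Other genes that the rule for the largest changes named have no list. Fam107a, an actin-associated stress-induced protein, measured 4.11, 4.88, 4.18 and 10.1 RPKM at day 21 and 1.23, 0.604, 0.501 and 0.87 RPKM at day 3. It rose by 1.86 ± 0.31 (SE, limma adjusted p = 0.00144). Asb15, a muscle protein with ankyrin repeats and a SOCS box, measured 4.54, 3.59, 3.78 and 3.41 RPKM at day 21 and 11.4, 5.99, 8.62 and 11.3 RPKM at day 3. The difference was -1.06 ± 0.16 (SE, limma adjusted p = 0.000554). Zbtb20, a transcriptional repressor, measured 11, 10.002, 13 and 14.9 RPKM at day 21 and 30.3, 19, 22.8 and 25.7 RPKM at day 3. The difference was -0.94 ± 0.18 (SE, limma adjusted p = 0.0035). Lgals4, galectin 4, measured 7.28, 8.57, 6.29 and 6.15 RPKM at day 21 and 10.1, 9.45, 16.7 and 23.4 RPKM at day 3. The difference was -0.90 ± 0.21 (SE, limma adjusted p = 0.0122). In these 4 genes the groups did not overlap, which the rule required. Lgr6, a receptor for R-spondins, measured 5.89, 5.99, 6.23 and 0.776 RPKM at day 21 and 8.61, 8.02, 8.7 and 9.51 RPKM at day 3, where A11 alone was far below the other day 21 hearts, and its difference of -0.96 ± 0.30 (SE, limma adjusted p = 0.0474) did not pass without day 3 mouse A4, A5, A7 or A8 (limma adjusted p = 0.0696 to 0.105). Without A11 it was -0.46 (limma adjusted p = 0.00405). When only the 8 libraries of both days were fitted, Lgr6 and Lgals4 did not pass (limma adjusted p = 0.172 and 0.0579). Nor, among others, did Nppb, Ctgf, Lmod2, Mfap5, Timp4, Adam12, Cxcl5, Il1b, H2-Aa, H2-Eb1, Cd74, H2-Ab1 and mt-Nd5. For these the limma adjusted p was 0.0509 to 0.145. Lgals4 (-0.75) did not pass without A10 and A11 of day 21 (log2; limma adjusted p = 0.1).

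The remote level at days 7, 14 and 42 showed when the difference between days 21 and 3 was already present. Ankrd1 stood at 895 ± 295, 1508 ± 85.9, 1997 ± 669, 2482 ± 416 and 2362 ± 706 RPKM at days 3, 7, 14, 21 and 42 (mean and SD, n = 4 each). Spp1 stood at 9.04 ± 4.62, 2.09 ± 0.358, 0.491 ± 0.16, 1.41 ± 0.979 and 1.09 ± 0.874 RPKM, so that its low level was already there at day 7. Ryr2 stood at 369 ± 43, 245 ± 24.1, 245 ± 12.7, 222 ± 15.9 and 255 ± 33.1 RPKM and Prox1 at 12.4 ± 1.1, 7.71 ± 0.562, 6.89 ± 1.84, 5.9 ± 0.631 and 7.17 ± 0.773 RPKM, both also low from day 7. Others were still near or below the day 3 level at day 7. Gsn stood at 341 ± 54.5, 222 ± 35.4, 562 ± 88.2, 591 ± 26.6 and 459 ± 48.2 RPKM, Aqp1 at 89.4 ± 13.6, 89 ± 23, 182 ± 32.1, 171 ± 24.6 and 129.99 ± 23.8 RPKM and Tsc22d3 at 21.1 ± 5.22, 22.8 ± 6.66, 54 ± 21, 58.5 ± 6.87 and 31.2 ± 9.28 RPKM. Tsc22d3 at day 42 overlapped the day 3 range by its mean and SD. Zbtb20 stood at 24.4 ± 4.78, 17.6 ± 4.65, 15.7 ± 3.61, 12.2 ± 2.2 and 30.3 ± 4.77 RPKM, high again at day 42. The mice of day 42 carry B labels and the others A labels, so label set and day 42 cannot be told apart.

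**Figure D5:**
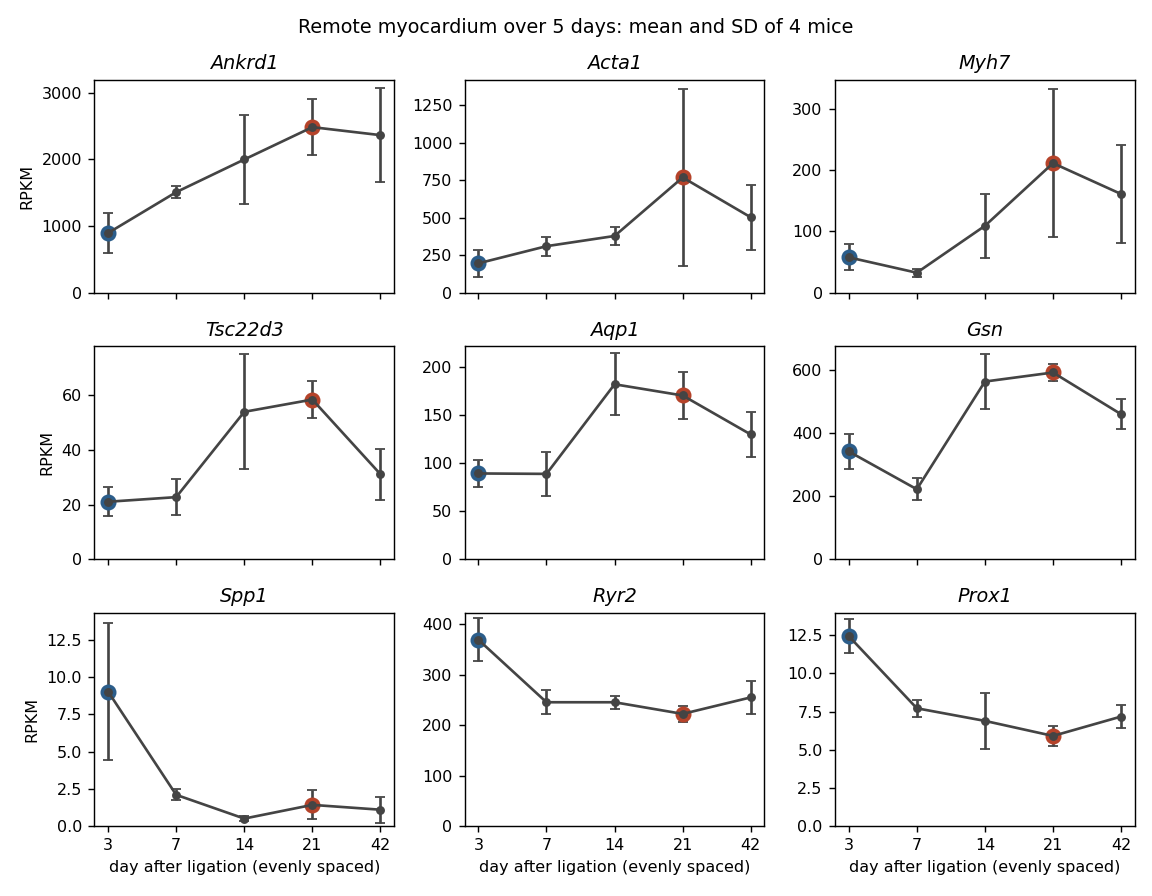
Mean RPKM of 4 mice in remote myocardium with SD as error bars, at days 3, 7, 14, 21 and 42 in evenly spaced steps, for 9 genes, with day 3 and day 21 enlarged and coloured. Spp1, Ryr2 and Prox1 are low from day 7 on, whereas Gsn, Aqp1 and Tsc22d3 are high at days 14 and 21.

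The same interval was compared between the regions of the same hearts, as the change from day 3 to day 21 in remote muscle minus that in scar, with the mouse as a block. It was higher in remote muscle for 3490 genes (30.6%) and lower for 3344 (29.4%), or 6834 in all (60%). On the log2(RPKM + 1) scale the changes of Spp1, Ccl2 and Arg1 were downward in both regions and larger in scar. Adding 1 understates changes at low levels, such as those of Arg1 in remote muscle. There Arg1 changed by -1.01 in the main fit and by as much as -4.44 among the other settings. The part of this scale in the differences of the changes was not tested. The difference of the changes was 2.87 ± 0.44 (SE, limma adjusted p = 2.78e-05) for Spp1. Ccl2 in scar stood at 1.95 ± 0.614 RPKM at day 21 and 56.1 ± 16.1 RPKM at day 3, and the difference of the changes was 3.00 ± 0.31 (SE, limma adjusted p = 1.4e-07). Arg1 in scar stood at 1.15 ± 1.97 RPKM at day 21 and 106 ± 53.3 RPKM at day 3, and the difference was 4.87 ± 0.49 (SE, limma adjusted p = 1.96e-07). Acta1 rose in remote muscle, whereas scar held 12.5 ± 7.29 RPKM at day 21 and 71.6 ± 31.8 RPKM at day 3, and the difference was 4.34 ± 0.68 (SE, limma adjusted p = 3.33e-05). Gsn and Tsc22d3 rose in remote muscle and were further apart in scar, at 1116 ± 217 RPKM at day 21 and 39.5 ± 5.3 RPKM at day 3 for Gsn and 68.5 ± 7.48 RPKM at day 21 and 7.54 ± 2.05 RPKM at day 3 for Tsc22d3, and their differences were -3.97 ± 0.22 (SE, limma adjusted p = 2.12e-11) and -1.60 ± 0.13 (SE, limma adjusted p = 2.82e-09). Ryr2 had scar levels of 53.3 ± 14.3 RPKM at day 21 and 39.7 ± 11.5 RPKM at day 3, and the difference was -1.15 ± 0.23 (SE, limma adjusted p = 0.000282). For Ankrd1, with scar levels of 1730 ± 327 RPKM at day 21 and 814 ± 172 RPKM at day 3, the difference of 0.43 ± 0.32 (SE, limma adjusted p = 0.247) did not pass. For H2-Aa the scar held 95.8 ± 28.9 RPKM at day 21 and 43.5 ± 10.4 RPKM at day 3, and the difference of -0.17 ± 0.24 (SE, limma adjusted p = 0.558) did not pass either. Sox17 rose in remote muscle and scar held 1.52 ± 0.36 RPKM at day 21 and 2.89 ± 0.572 RPKM at day 3, a difference of 1.31 ± 0.14 (SE, limma adjusted p = 1.16e-07).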

How the data were processed

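Per the labels' protocols, total RNA was extracted from remote and scar tissue with an RNeasy Mini kit and made into libraries with an Illumina TruSeq kit. The authors deposited 1 table of RPKM values for 11450 genes. STAR, edgeR and mm10 are named in the submitters' processing notes, but no source used here gives their roles, the annotation or the counting. Groups came from the labels.

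Tests covered genes that reached 1 RPKM in at least 4 of the 40 libraries, on log2(RPKM + 1), with a pseudocount of 1, which understates changes of low genes. Remote days were compared by limma 3.58.1 in R 4.3.3 (mean-variance trend, robust) over the 20 remote libraries of 5 days, with 15 residual degrees of freedom, so that all days share 1 estimate of the spread. The change in remote muscle minus that in scar was fitted over both regions (40 libraries), the mouse being the block. Per the design text both regions came from the same heart, and the deviations of the 2 libraries of a mouse from their group means correlated at 0.148 to 0.439. P values were adjusted over 11390 genes by the Benjamini-Hochberg method. The code was tested on simulated data.

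Whole reads were recovered from the steps between RPKM values: 99.4% of values lay within 0.01 of a whole number, with a median of 571 reads per gene and library. limma-voom on these reads called 596 genes higher and 640 lower. Recovered totals divided by the library sizes implied by RPKM differed between libraries, hence the rescaling alternative.

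The comparison and the gene lists were chosen with earlier results of these data known. Named genes were the 10 highest and 10 lowest called genes with groups apart and a mean of at least 5 RPKM, up to 4 called members per list by size, 29 anchor genes, and 5 in each direction of the scar comparison that were called in both tests. 5 unnamed gene models were passed over. In the set of highest and lowest genes, groups apart were a condition of the choice, so their separation is not a result. Other list members were named after their values were seen, and some genes counted in the lists are not reported here by name. Positions are from GENCODE M21 and promoter windows from RefSeq, both on mm10, and the window table held 8550 of the genes tested. Labels give 1 mouse per library and day, so p values measure the spread between mice.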

Additional observations from a re-analysis of the deposited data

Results flagged for a closer look

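One library lay far from the other 3 of its day, by Dixon's criterion for 4 values, in 19 of 268 groups of values of named genes, where chance gives about 1 in 20. At day 21, A11 was far above the rest for Acta1 (1650 RPKM, or 1649.76 before rounding) and Fam107a (10.1) and far below for Lgr6 (0.776). A3 was high for Il1b (0.927), and A10 was high for C3ar1 (2.49) and low for Pecam1 (40.8). At day 3, A4 was high for Angptl7 (1.06), Mgp (165), Ier5 (12.9) and Xist (17.7), and low for Ppargc1b (6.24). A7 was high for Gpx1 (45.6), Col1a1 (59.98), Col5a1 (22.2) and Ccr2 (4.23), and low for Car4 (4.07). A8 was high for Csf3r (1.07) and Ddit4 (20.2) and low for Dkk3 (1.06). All these values are RPKM in remote muscle.

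The change from day 3 to day 21 differed between remote muscle and scar in the genes below, in limma with the mouse as a block, as remote minus scar on the log2 scale. It was higher in remote muscle for Gm10722 (5.31 ± 0.62 (SE, limma adjusted p = 1.55e-06)), Arg1 (4.87 ± 0.49 (SE, limma adjusted p = 1.96e-07)), Acta1 (4.34 ± 0.68 (SE, limma adjusted p = 3.33e-05)), Ccl7 (3.23 ± 0.32 (SE, limma adjusted p = 9.26e-08)) and Chil3 (3.19 ± 0.12 (SE, limma adjusted p = 2.26e-13)). It was lower in remote muscle for Comp (-4.97 ± 0.52 (SE, limma adjusted p = 4.03e-07)), Angptl7 (-4.82 ± 0.39 (SE, limma adjusted p = 1.23e-08)), Fmod (-4.66 ± 0.31 (SE, limma adjusted p = 6.41e-10)), Myoc (-4.28 ± 0.28 (SE, limma adjusted p = 3.72e-10)) and Gsn (-3.97 ± 0.22 (SE, limma adjusted p = 2.12e-11)). Adding 1 understates changes at low levels, such as those of Arg1, Chil3 and Gm10722 in remote muscle, and its part here was not tested. In remote muscle Gm10722 changed by -0.69 and Myoc by 0.62 (limma adjusted p = 0.0346 and 0.0398). Of the 8 fits that left out 1 library, Gm10722 did not pass in 6 and Myoc in 7. In Comp, Angptl7, Fmod, Myoc and Gsn the change was upward in both regions. Comp, for example, stood in remote muscle at 14.7 ± 12.5 RPKM at day 21 and 0.93 ± 0.23 RPKM at day 3, and in scar at 584 ± 93.6 RPKM at day 21 and 1.97 ± 0.366 RPKM at day 3 (SD, n = 4 each).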

How the results depend on the processing

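No paired analysis was possible because the day 21 and day 3 mice are different animals and share only the label A4. For remote minus scar, the fit with no replicate block gave 3282 genes higher and 3154 lower, against 3490 and 3344 with the mouse as a block, and all alternatives stayed within 1.5 times of these counts (leaving out 1 mouse, 3196 to 3397 and 3085 to 3265).

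Main counts were 651 higher and 658 lower. Leaving out 1 library gave 419 to 564 higher and 329 to 613 lower. With Xist as a covariate 859 were higher and 895 lower. Library weights gave 1117 and 1208, a mean of at least 5 RPKM 290 lower with 62.4% of calls upward, and recovered-read scaling 743 and 460. A fit of only the 8 libraries of days 3 and 21 gave 515 and 620. It kept 458 of the 651 higher calls and 496 of the 658 lower calls. Settings added after the data were seen gave 374 higher without A10 and A11 of day 21, and 423 lower without A3 and A4. No called gene was called the other way in any setting. Of 111 called named genes, 65 stayed called in all 8 fits that left out 1 library. None of the differences that changed sign had passed the test. Without A3 and A4 these were Col3a1 (0.26), Col5a1 (0.29), Fn1 (0.24), Timp1 (0.48), Ckm (-0.054) and Mb (-0.016). Without A10 and A11 they were Col5a2 (-0.41), Postn (-0.27) and Xist (-0.99). With library weights it was Col5a2 (-0.16), and with Xist as a covariate Xist (-0.070). The cause was not tested. With 4 mice a day, small changes may have been missed.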
